A study of Mus musculus with 9 samples.

Results

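The comparison set 3 mouse glioma lines made with a mutant Hras transgene against 3 made with a mutant Erbb2 transgene, which are 6 of the 9 arrays of the series. Lines were taken into each group by the oncogene named in their labels, and no measured value was used to choose them. Expression was read on Affymetrix Mouse Gene 1.0 ST arrays, whose probes lie along the whole transcript. Per the labels, the Erbb2 lines received a plasmid for EGFP joined through P2A to Erbb2 V664E, and the Hras lines received an EGFP fusion of Hras G12V. Both groups also received TagBFPnls-V5 and the plasmid labelled pBase, and all 6 lines came from CD1 mice. The electroporated side of the subventricular zone was grown without serum in Neurobasal-A with B-27 lacking vitamin A, EGF, FGF and heparin, and cells with high GFP were sorted. The promoters of the transgenes and the ages of the mice are not stated there. The 3 neural stem cell (NSC) arrays carried reporters alone (membrane EGFP in NSC 1, EGFP-tagged histone 3.3 in NSC 2, both CD1, and TagBFPnls in NSC 3, from C57/Bl6 mice with a floxed Dnm2 gene), and served here to estimate the spread and as a reference level. Whether the lines of each oncogene derive from different animals is not in the labels. The p-values and standard errors therefore cover the spread within groups of these 9 arrays alone, NSC included, which may be technical.

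Erbb2 is a receptor tyrosine kinase of the epidermal growth factor receptor family, and Hras is a small GTPase that such receptors switch on. Activated Ras passes the signal to the Raf, MEK and ERK kinases and to phosphoinositide 3-kinase, and ERK in turn acts on Ets transcription factors and induces its own inhibitors of the Sprouty and Dusp families. An activated receptor and an activated Ras therefore enter the same pathway at different levels, and a receptor also feeds branches that do not need Ras. The comparison asks how far the lines of these oncogenes differ in expression.

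No gene separated the groups after correction for multiple testing. Levels are given as log2 values relative to the median gene of the same array, and a difference is the mean of the Hras lines minus the mean of the Erbb2 lines. Of 20690 genes, 0 (0%) had an adjusted p under 0.05 in limma with Benjamini-Hochberg adjustment, and the smallest adjusted p was 0.504, shared by 863 genes. At an unadjusted p under 0.05, 250 genes (1.21%) were higher and 1591 (7.69%) were lower in the Hras lines. Without any difference, 1034.5 genes would be met at that threshold. The first count was 460 without Hras 1, and the second was 983 without Hras 2 and 898 without Erbb2 2. The 3 Hras lines lay above the 3 Erbb2 lines for 709 genes (3.43%) and below them for 3099 genes (15%). The median gene had a standard deviation of 0.29 between lines of a group, a standard error of the difference of 0.27 and an absolute difference of 0.25. A difference of at least 1 was found for 849 genes, of which 246 were higher and 603 lower in the Hras lines. Every gene named below has an adjusted p of 0.504 or more, so the values describe these 6 lines and no gene is called changed.

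The balance of higher against lower genes rested on the scaling. The Hras arrays were brighter, with array medians of 7.06, 7.19 and 6.98 in the deposited log2 values against 6.68, 6.56 and 6.73 in the Erbb2 arrays. Subtracting each array's median left a median difference of -0.13 over all genes, and the brightest 4138 genes had a median difference of -0.29. Quantile normalization, which gives all arrays an identical distribution, moved the median difference to -0.01 and gave 576 genes higher (2.78%) and 595 lower (2.88%) at an unadjusted p under 0.05. Without centring, 2476 genes (12%) were higher and 149 (0.72%) lower. For this reason the median of each gene group below is given with its value relative to all genes and its value after quantile normalization.

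**Figure D1:**
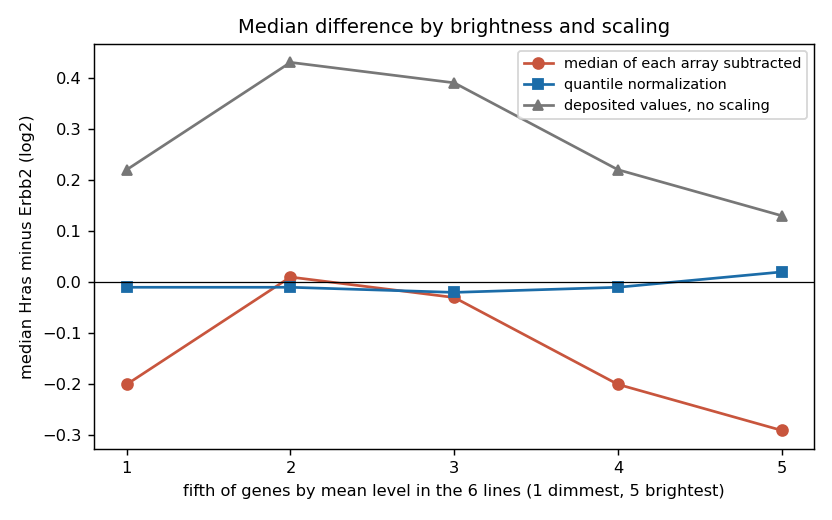
Median log2 difference between Hras and Erbb2 lines (vertical axis) for 5 groups of 4138 genes sorted by mean level (horizontal axis, 1 dimmest to 5 brightest), under 3 scalings. With array medians subtracted the line runs from -0.20 in the dimmest group through 0.01 to -0.29 in the brightest, and after quantile normalization it stays between -0.02 and 0.02.

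The lines did not sort by oncogene over the whole profile. Hras 1 was closest to Erbb2 2 (Pearson r = 0.971 across genes), and Hras 2 and Erbb2 3 were closest to each other (r = 0.955). To 3 decimals Hras 2 was as close to Hras 1 (r = 0.955). Erbb2 1 was closest to Erbb2 2 (r = 0.967) and Hras 3 to Hras 2 (r = 0.947). Correlations ranged from 0.918 to 0.955 within the Hras group, from 0.926 to 0.967 within the Erbb2 group, and from 0.897 to 0.971 between them. The first principal component of the 6 lines, with 45.2% of the variance, placed Erbb2 1, Erbb2 2 and Hras 1 at -51.3, -41.3 and -39.9, and Hras 2, Erbb2 3 and Hras 3 at 18.5, 43.8 and 70.2. These correlations run across genes of single arrays and carry no test, because genes are not independent replicates.

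**Figure D2:**
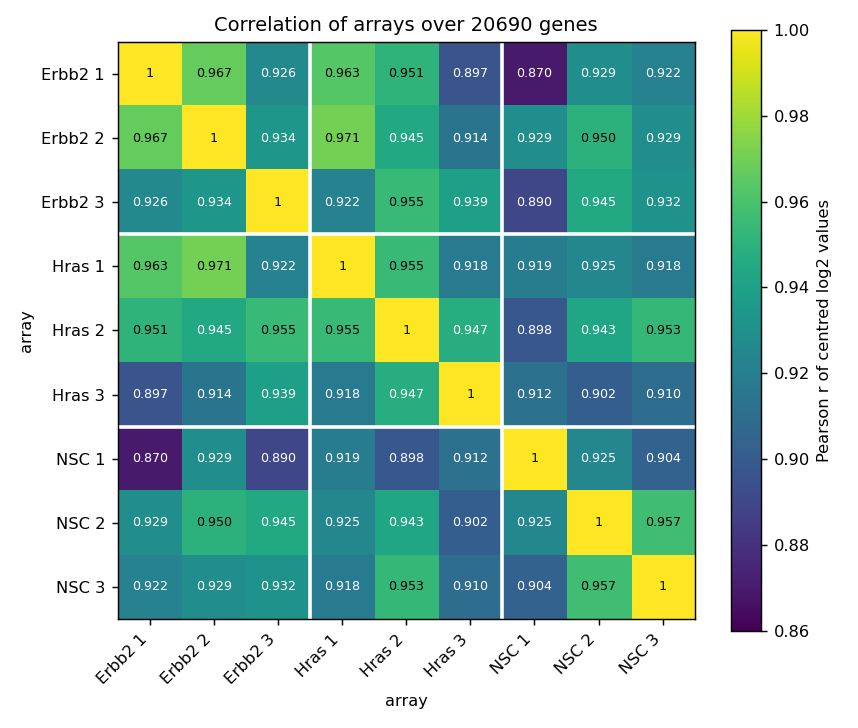
Pearson correlation across 20690 genes between each pair of the 9 arrays, after subtraction of the array medians (colour scale, r). The pair Hras 1 and Erbb2 2 (0.971) is brighter than any pair within the Hras group (0.918 to 0.955).

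Lines differed in sex-linked genes along with the group. Ddx3y, a Y-linked RNA helicase, had levels of 0.82, -2.26 and 1.71 in Erbb2 1, 2 and 3 and of -2.44, -2.30 and -2.96 in Hras 1, 2 and 3. The Y-linked genes Eif2s3y, Kdm5d and Uty likewise were high in Erbb2 1 and 3 and low in Erbb2 2 and in every Hras line. Xist, the RNA that silences an X chromosome in female cells, was at -2.72 and -2.76 in Erbb2 1 and 3, at 3.65 in Erbb2 2, and at 1.77, 3.04 and 2.70 in the Hras lines. By these genes Erbb2 1 and 3 stand apart from the other 4 tumour lines, and the part of this in the differences below was not tested. Values of Erbb2 2 can be read beside those of the Hras lines within each gene.

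All 6 lines had Sox2, Vim and Olig2 above the array median, while other markers of the oligodendrocyte lineage varied between lines. Sox2, a stem cell transcription factor, was between 3.92 and 4.36 in the 6 lines, and Vim, the intermediate filament vimentin of progenitors, was between 5.50 and 5.96. Olig2, a factor of the oligodendrocyte lineage, was at 4.37, 4.38 and 3.91 in the Erbb2 lines and at 3.84, 3.87 and 2.19 in the Hras lines. In such bulk samples fewer cells of a type and less RNA per cell cannot be told apart. A dim level is taken here as -1.48 or less, the 25th percentile of all values. Of the markers of other cells, Aif1 of microglia lay between -2.15 and -2.0, Cdh5 of endothelium between -1.85 and -1.33, and Dcn of fibroblasts between -2.22 and -1.77. Summed over lists, the mean level ran from -1.31 to -1.13 in the Erbb2 and from -1.44 to -1.18 in the Hras lines for 17 microglia and macrophage genes. The 14 endothelial genes averaged -1.25 to -0.97 and -1.41 to -0.73, and the 21 pericyte, smooth muscle and fibroblast genes -0.86 to -0.79 and -0.91 to -0.38.

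The array did not separate the groups by the genes of their transgenes. Hras, listed under its older symbol Hras1, was at 2.14, 2.68 and 2.20 in the Erbb2 lines and at 2.46, 2.1 and 2.54 in the Hras lines. The groups overlapped, with a difference of 0.03 ± 0.25 (SE), which becomes 0.32 after quantile normalization. Erbb2 itself was at 1.55, 0.44 and 2.44 in the Erbb2 lines and at 0.18, 1.17 and 1.20 in the Hras lines, with Erbb2 2 below 2 of the Hras lines. Whether the probes of either gene read the transgene is not stated in the labels, so these values do not check the labels. Erbb3, the receptor with which Erbb2 pairs, followed the lines and not the oncogene, at 4.67, 3.38 and -1.77 in the Erbb2 lines and 3.97, 1.29 and -0.99 in the Hras lines.

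Direct outputs of ERK showed no shared direction. Of 25 genes for ERK output and feedback, 10 had a positive and 15 a negative difference, 1 was higher (4%, against 1.21% of all genes) and 1 lower (4%, against 7.69%) at an unadjusted p under 0.05, and the median of -0.13 equalled that of all genes. This median turns positive without centring (0.29) and after quantile normalization (0.19). Spry4, a feedback inhibitor of the pathway, was at 5.24, 4.35 and 5.24 in the Erbb2 lines and 4.40, 4.90 and 3.96 in the Hras lines, and the groups overlapped. Dusp6, a phosphatase that switches ERK off, had a difference of -0.07 ± 0.23 (SE), which becomes 0.28 after quantile normalization. Egr1, an immediate early transcription factor, was at 3.37, 3.03 and 2.66 in the Erbb2 lines and at 1.03, 1.67 and 1.48 in the Hras lines. Each Hras line lay below each Erbb2 line for Egr1, with a difference of -1.63 ± 0.56 (SE; limma unadjusted p = 0.0181, adjusted p = 0.504).

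Ligands of the receptor family had no shared direction. Ereg, which encodes the receptor ligand epiregulin, was at -1.52, -1.51 and -1.88 in the Erbb2 lines and at -1.63, 1.01 and 3.45 in the Hras lines. Hbegf, another ligand of the receptor family, was at 1.47, 2.24 and 1.95 against 1.66, 3.76 and 4.39. In both genes Hras 1 lay within the range of the Erbb2 lines, so the groups overlapped, and the difference for Ereg was 2.58 ± 1.05 (SE; limma unadjusted p = 0.0374, adjusted p = 0.533). Tgfa, a further ligand, went the other way, at 2.98, 2.63 and 0.64 in the Erbb2 lines and 2.34, 0.88 and 0.23 in the Hras lines, with overlap (difference -0.93). Of 17 ErbB receptors and ligands 9 had a positive difference, with a median of 0.27, which is 0.40 relative to all genes and 0.27 after quantile normalization. Egfr, the receptor for these ligands, was at -1.40, -0.23 and 0.42 in the Erbb2 lines and at -1.47, 0.94 and 0.55 in the Hras lines, below the NSC level of 3.75 ± 0.84 (SD, n = 3).

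Among Ets factors the PEA3 group was high in every line. Etv1 was at 4.60, 4.18 and 4.61 in the Erbb2 lines and 3.52, 4.47 and 3.56 in the Hras lines, and Etv5 at 3.99, 3.51 and 4.57 against 3.16, 3.70 and 2.80. Their differences of -0.62 ± 0.41 (SE) and -0.80 ± 0.54 (SE), and that of Etv4 (-0.60 ± 0.43, SE), lay within 2 standard errors and the groups overlapped. Elk1, an Ets factor that ERK phosphorylates and that acts on immediate early genes, was at 3.48, 3.53 and 3.48 in the Erbb2 lines and at 2.87, 2.59 and 2.37 in the Hras lines. The groups did not overlap for Elk1, with a difference of -0.89 ± 0.29 (SE; limma unadjusted p = 0.014, adjusted p = 0.504). Of 20 Ets factors 15 had a negative difference, with a median of -0.29 (-0.16 relative to all genes) that becomes -0.15 after quantile normalization and 0.13 without centring.

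Of 28 Ras GTPases and regulators of the pathway, 2 lay above all Erbb2 lines in every Hras line (against 3.43% of all genes) and 4 lay below (against 15% of all genes). Mapk3, which encodes the kinase ERK1, was at 4.87, 4.41 and 5.12 in the Erbb2 lines and at 4.05, 3.67 and 3.82 in the Hras lines. Rras, a GTPase related to Hras, was at 4.88, 5.01 and 5.99 against 4.23, 4.22 and 4.43. Both lay lower in every Hras line, with differences of -0.95 ± 0.32 (SE; limma unadjusted p = 0.0171, adjusted p = 0.504) and -1.0 ± 0.43 (SE; limma unadjusted p = 0.0453, adjusted p = 0.55). Over the 28 genes 13 differences were positive and 15 negative, with a median of -0.04 (0.09 relative to all genes), which becomes 0.19 after quantile normalization and 0.38 without centring. At an unadjusted p under 0.05, 1 was higher (3.57%, against 1.21% of all genes) and 3 were lower (10.7%, against 7.69%). After quantile normalization 3 were higher (against 2.78%) and 0 lower (against 2.88%). Without centring 5 were higher (against 12%) and 0 lower (against 0.72%). Mapk3 and Rras thus pass that threshold only under some scalings.

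Of the 37 gene lists, sterol synthesis had the most members past the unadjusted threshold in 1 direction, all of them lower in the Hras lines. Cholesterol is made from acetyl-CoA through mevalonate and squalene, and the transcription factor SREBP2 switches on nearly every enzyme of the chain when sterols are scarce. Of 25 sterol genes, 23 had a negative difference, 11 (44%) were lower at an unadjusted p under 0.05 against 7.69% of all genes, and for 11 the Hras lines lay below all Erbb2 lines, against 15% of all genes. The list is bright on average, and bright genes were lower more often. Of the brightest 4138 genes 535 were lower at that p threshold, with a median difference of -0.29. Averaged over the list, the level was 3.67, 3.25 and 3.14 in the Erbb2 lines, 3.00, 2.44 and 2.81 in the Hras lines, and 2.93, 2.59 and 2.91 in NSC. The list average was thus lower in each Hras line than in each Erbb2 line, and the NSC arrays lay within the range of the Hras lines. The median difference was -0.60, or -0.47 relative to all genes, and after quantile normalization it was -0.31 with 4 members lower against 2.88% of all genes. The count of 11 at an unadjusted p under 0.05 was 5 without Hras 2 and 6 without Erbb2 1. The list was chosen with results of these data known, so these counts describe it and do not test it.

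The sterol genes named for their small p are enzymes late in the chain and Insig1, a regulator. Nsdhl, a sterol dehydrogenase of the late pathway, was at 4.59, 4.04 and 4.21 in the Erbb2 lines and at 3.54, 2.75 and 3.48 in the Hras lines (difference -1.02 ± 0.25, SE; limma unadjusted p = 0.00318, adjusted p = 0.504). Ebp, the isomerase that acts near it, was at 2.11, 2.45 and 2.19 against 1.58, 0.98 and 1.56. Dhcr7, which carries out the last reduction to cholesterol, was at 4.31, 3.49 and 3.24 against 2.81, 2.60 and 2.58. For all of these, each Hras line was below each Erbb2 line, by 0.88 for Ebp and 1.02 for Dhcr7 on average. Insig1, which holds SREBP in the endoplasmic reticulum and is itself an SREBP target, was at 5.40, 5.13 and 5.65 in the Erbb2 lines and at 4.89, 3.62 and 4.31 in the Hras lines. Its difference was -1.12 ± 0.32 (SE; limma unadjusted p = 0.00719, adjusted p = 0.504). Srebf2, the gene of SREBP2, had a difference of -0.97, and its groups did not overlap. Stard4, a sterol carrier, had a positive difference (0.14) with overlapping groups.

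Genes of amino acid shortage and of the unfolded protein response were also lower in most Hras lines. ATF4 is the transcription factor through which shortage of amino acids or misfolded protein in the endoplasmic reticulum turns on amino acid synthesis, transport and stress genes. Of 30 genes on the list, which joins ATF4 targets with the unfolded protein response, 27 had a negative difference, 8 (26.7%) were lower at an unadjusted p under 0.05 against 7.69% of all genes, and 9 lay below all Erbb2 lines in every Hras line, against 15% of all genes. This list is also bright on average, and 535 of the brightest 4138 genes were lower at that p threshold. The list averaged 3.68, 3.78 and 3.15 in the Erbb2 lines, 2.69, 2.78 and 3.27 in the Hras lines, and 2.43, 2.81 and 2.61 in NSC. Hras 3 lay above Erbb2 3 in this average, so the groups overlapped. The median difference was -0.66, or -0.53 relative to all genes, and -0.38 after quantile normalization. There 3 members were lower at an unadjusted p under 0.05, against 2.88% of all genes. The count of 8 was 5 without Hras 1 or without Hras 2, 4 without Erbb2 1 or without Erbb2 2, and 14 without Erbb2 3.

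The 4 members with the smallest p were Chac1, Vldlr, Atf5 and Xbp1. Chac1, a glutathione-degrading enzyme induced by ATF4, was at 4.65, 4.07 and 3.35 in the Erbb2 lines and at 1.0, 1.66 and 3.20 in the Hras lines. The highest Hras line lay just below the lowest Erbb2 line, and the difference was -2.07 ± 0.59 (SE; limma unadjusted p = 0.00705, adjusted p = 0.504), a 4.20-fold lower mean. Vldlr, a lipoprotein receptor, was at 3.18, 2.63 and 3.55 against 2.02, 2.25 and 2.44, and Atf5, a related transcription factor, at 2.68, 2.24 and 2.36 against 1.10, 1.30 and 1.82. Xbp1, the factor of the IRE1 branch, was at 4.00, 4.32 and 3.95 in the Erbb2 lines and at 3.05, 3.21 and 3.45 in the Hras lines. These 3 genes also separated the groups, with differences of -0.89, -1.02 and -0.85. Asns, asparagine synthetase, had a difference of -0.82, Slc3a2, a subunit of amino acid exchangers, of -0.90, and Herpud1, a factor of protein degradation at the endoplasmic reticulum, of -1.02, again without overlap. Hspa5, the chaperone BiP, had a difference of -0.03, and the positive members were Hsp90b1 (0.09), Pdia4 (0.09) and Ero1l (0.41).

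**Figure D3:**
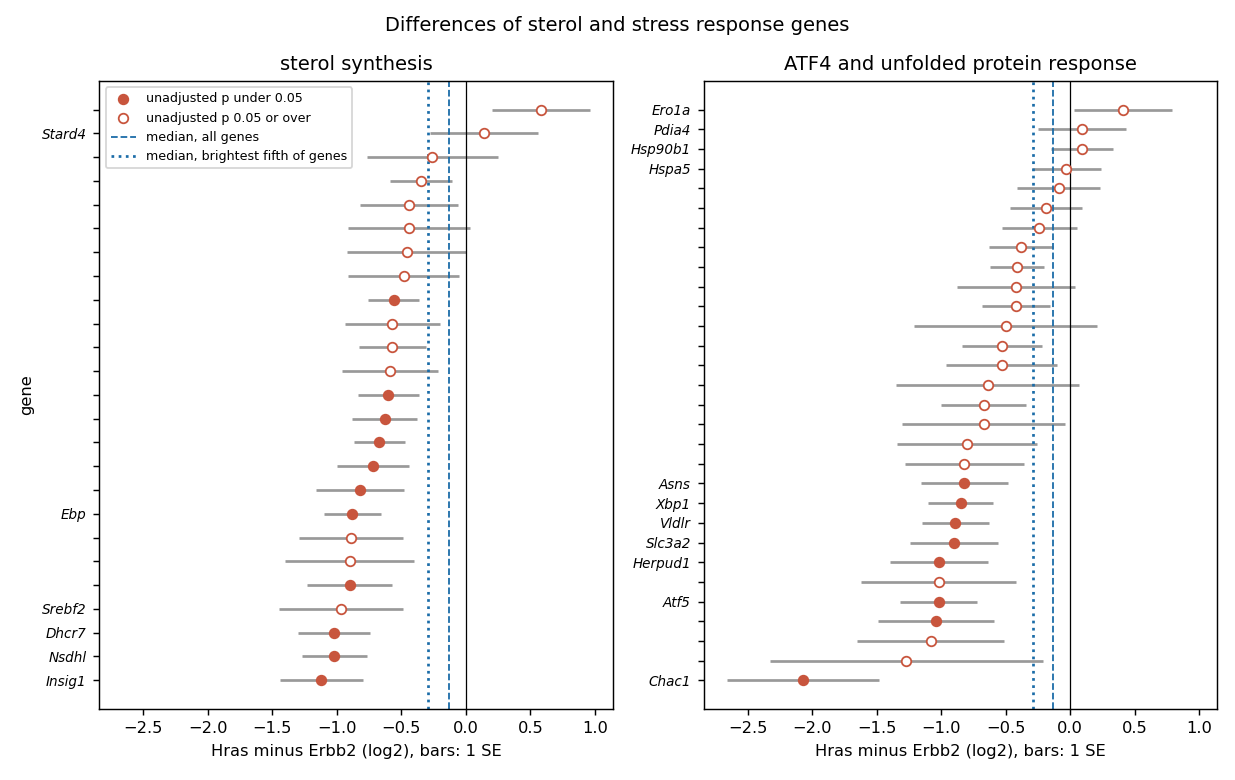
Log2 difference (Hras minus Erbb2, horizontal axis) with 1 standard error for each gene (vertical axis, labelled where the text names it) of the sterol synthesis list (left) and of the ATF4 and unfolded protein list (right). In the left panel 23 of 25 points and in the right panel 27 of 30 points lie below 0.

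Promoter sequence was read for both lists, in windows from 250 bases before to 50 after the annotated start (RefSeq, GRCm38.p6), on both strands. The motif TGATGNAA, which ATF4 binds with C/EBP partners, was present at 8 of 29 genes of the ATF4 list (27.6%) and at 1219 of 27025 genes overall (4.51%). CCAAT, bound by NF-Y, which acts with SREBP, was at 16 of 17 sterol genes (94.1%) and at 41.1% of all genes. It was also at 22 of 29 genes of the ATF4 list (75.9%), so it was common in both lists. TCACNCCAC, a form of the sterol response element, was at 1 of 17 sterol genes (5.88%) and at 1.44% of all genes. A gene counts where any of its annotated windows holds the motif, the window with a match is shown, and each motif was counted on its own, also where matches share bases. A match is a description of the letters and not a bound site. Of the lower stress genes named above, Atf5, Xbp1 and Slc3a2 held no match to TGATGNAA. Whether this motif goes with a lower level was not tested. Promoters of 3 stress genes that lay lower in the Hras lines and of Dhcr7 and Nsdhl are shown 5′ to 3′ along the gene's strand. Capitals mark TGATGNAA or its reverse complement in the first 3 (Chac1, chr2:119350992-119351291, + strand. Vldlr, chr19:27216770-27217069, + strand. Herpud1, chr8:94386179-94386478, + strand) and CCAAT or its reverse complement in the other two (Dhcr7, chr7:143829964-143830263, + strand. Nsdhl, chrX:72918271-72918570, + strand).
Chac1: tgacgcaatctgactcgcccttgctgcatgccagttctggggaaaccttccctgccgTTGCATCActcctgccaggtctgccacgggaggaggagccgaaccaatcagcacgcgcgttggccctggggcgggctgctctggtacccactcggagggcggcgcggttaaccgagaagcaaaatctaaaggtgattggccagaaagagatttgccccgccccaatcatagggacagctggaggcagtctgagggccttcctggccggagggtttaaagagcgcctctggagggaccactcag
Vldlr: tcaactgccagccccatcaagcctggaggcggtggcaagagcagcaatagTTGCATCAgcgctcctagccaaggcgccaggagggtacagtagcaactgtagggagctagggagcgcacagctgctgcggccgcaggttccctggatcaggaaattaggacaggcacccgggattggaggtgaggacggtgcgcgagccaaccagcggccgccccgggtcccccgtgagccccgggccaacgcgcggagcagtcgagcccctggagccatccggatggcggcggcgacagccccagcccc
Herpud1: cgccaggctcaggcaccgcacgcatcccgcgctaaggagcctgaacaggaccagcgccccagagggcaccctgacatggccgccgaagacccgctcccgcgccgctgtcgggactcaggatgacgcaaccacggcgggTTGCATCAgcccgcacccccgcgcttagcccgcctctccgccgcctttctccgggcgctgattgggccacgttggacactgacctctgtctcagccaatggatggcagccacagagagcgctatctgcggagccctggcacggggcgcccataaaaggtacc
Dhcr7: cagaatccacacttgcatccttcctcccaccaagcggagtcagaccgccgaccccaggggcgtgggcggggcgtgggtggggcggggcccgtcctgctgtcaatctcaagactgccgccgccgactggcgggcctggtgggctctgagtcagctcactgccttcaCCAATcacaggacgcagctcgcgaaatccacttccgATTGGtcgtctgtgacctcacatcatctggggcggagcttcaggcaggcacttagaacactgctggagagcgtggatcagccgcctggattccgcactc
Nsdhl: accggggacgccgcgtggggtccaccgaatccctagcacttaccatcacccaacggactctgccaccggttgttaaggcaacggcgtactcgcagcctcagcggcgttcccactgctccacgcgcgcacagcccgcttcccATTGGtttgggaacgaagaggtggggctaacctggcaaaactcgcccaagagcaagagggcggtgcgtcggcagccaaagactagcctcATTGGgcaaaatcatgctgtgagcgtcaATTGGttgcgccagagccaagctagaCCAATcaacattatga
In this window Chac1, Vldlr and Herpud1 each hold 1 copy of the first motif, read as TTGCATCA on the strand shown, and Dhcr7 and Nsdhl hold 2 and 4 copies of CCAAT.

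Lineage genes differed widely between lines that carried the same oncogene. Of 23 genes of oligodendrocyte precursors 22 had a negative difference, 1 (4.35%, against 7.69% of all genes) was lower at an unadjusted p under 0.05, and 5 lay below all Erbb2 lines in every Hras line, against 15% of all genes. The list averaged 3.51, 3.25 and 1.98 in the Erbb2 lines and 3.02, 2.22 and 0.76 in the Hras lines, so that Hras 1 lay above Erbb2 3. Its median was -0.92, which is -0.80 relative to all genes and -0.60 after quantile normalization, and it was -0.34 without Hras 3. Sox10, a factor of the oligodendrocyte lineage, was at 4.88, 4.04 and -0.56 in the Erbb2 lines and at 3.53, 1.41 and -0.42 in the Hras lines. Pdgfra, the receptor of precursors, was at 4.71, 4.12 and 2.33 against 4.83, 2.90 and 2.62. For these genes Hras 1 sat with Erbb2 1 and 2, and Hras 3 with Erbb2 3. Bcan, which encodes the brain matrix protein brevican, did lie apart, at 4.70, 4.66 and 4.75 in the Erbb2 lines and 4.13, 3.24 and 0.96 in the Hras lines (difference -1.93 ± 0.86, SE; limma adjusted p = 0.568). Neu4, a sialidase, was the positive member (0.68), through Hras 1 at 1.32.

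Proneural and astrocyte genes had mostly negative differences. Of 22 proneural glioma genes 19 had a negative difference, 0 were lower at an unadjusted p under 0.05 in limma (against 7.69% of all genes, and 0 with an adjusted p under 0.05), and 3 lay below all Erbb2 lines (against 15%). Their median was -0.73, which is -0.60 relative to all genes and -0.50 after quantile normalization, and it was -0.27 without Hras 3. Among 20 astrocyte genes 17 were negative, 1 (5%) was lower at an unadjusted p under 0.05 and 3 lay below all Erbb2 lines, against those same shares. Their median was -0.56, which is -0.43 relative to all genes and -0.35 after quantile normalization, and it was -0.11 without Erbb2 2. Slc1a2, the glial glutamate transporter, was at 1.82, 1.59 and 1.46 in the Erbb2 lines and at 0.73, 0.09 and -0.52 in the Hras lines, without overlap (difference -1.53 ± 0.45, SE; limma unadjusted p = 0.00801, adjusted p = 0.504). Gfap and Aqp4, taken here as astrocyte markers, were at or below 0.77 in every line.

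Interferon-induced genes were high in single lines of both groups. All 37 measured genes of the list had a positive difference, with a median of 0.87, yet 1 (2.7%, against 1.21% of all genes) was higher at an unadjusted p under 0.05 and for 1 the groups did not overlap (against 3.43% of all genes above). The median was 0.99 relative to all genes and 0.95 after quantile normalization. The list averaged -0.78, -0.67 and 1.48 in the Erbb2 lines and -0.54, 0.64 and 2.56 in the Hras lines, with Erbb2 3 above Hras 1 and Hras 2. Without Hras 3 the median was 0.03, and 19 of 37 differences were positive. Eif2ak2, the kinase PKR that senses double-stranded RNA, was at -0.58, -0.83 and 0.91 in the Erbb2 lines and at 0.44, 1.30 and 1.56 in the Hras lines. Of 17 genes of antigen presentation on MHC class I, 12 had a positive and 5 a negative difference, with a median of 0.11 (0.23 relative to all genes and 0.23 after quantile normalization). That list averaged 0.81, 1.25 and 3.26 in the Erbb2 lines and 1.21, 1.38 and 3.25 in the Hras lines, so that Erbb2 3 and Hras 3 were alike and the groups overlapped. Tap1, a peptide transporter, was at -0.13, -0.14 and 3.56 in the Erbb2 lines and at 0.51, 0.68 and 3.52 in the Hras lines, and the class I gene H2-Q4 was at -1.0, -0.21 and 4.46 against 0.50, 1.03 and 4.46. Both genes were thus high in Erbb2 3 and Hras 3 and low in the other 4 lines.

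**Figure D4:**
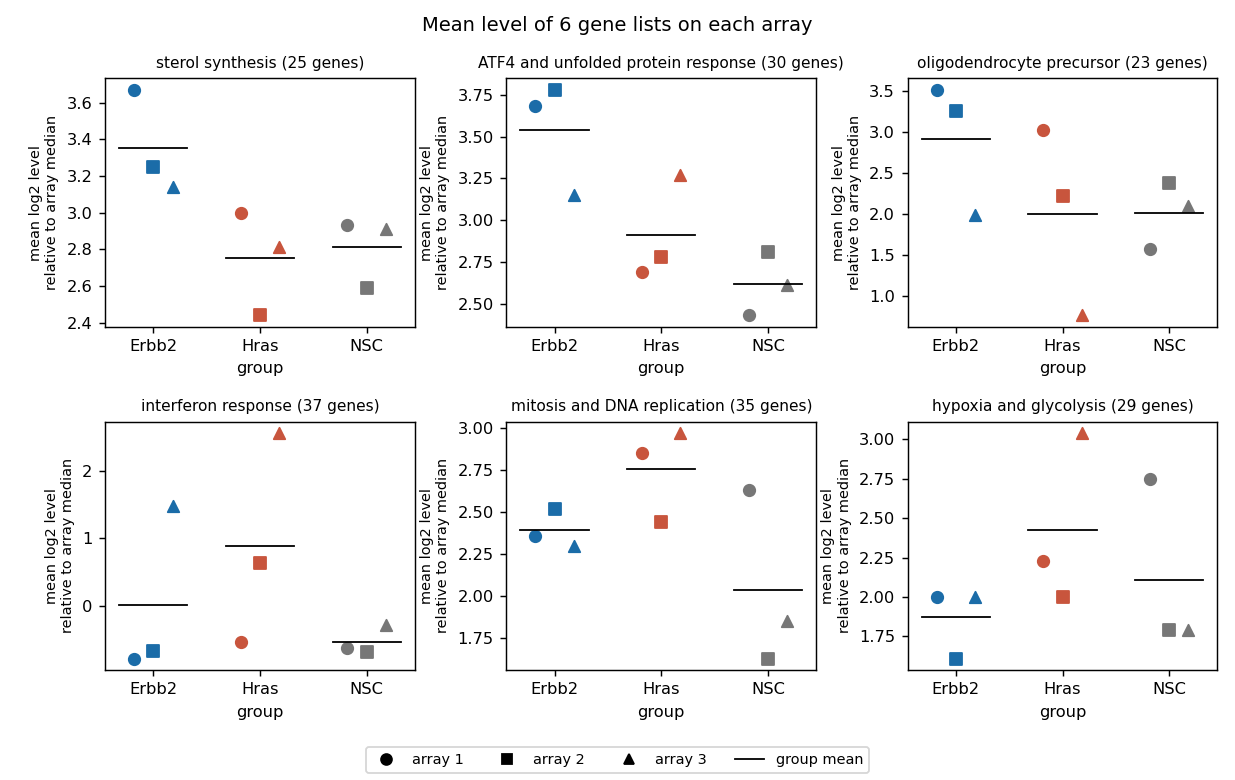
Mean log2 level relative to the array median (vertical axis) of 6 gene lists on each array (points, 1 shape per array number) with the group mean (bar), by group (horizontal axis). Sterol synthesis is lower in each Hras line (2.44 to 3.00) than in each Erbb2 line (3.14 to 3.67), and the interferon list reaches 1.48 in Erbb2 3 and 2.56 in Hras 3.

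Cell division and glycolysis genes had positive differences. Of 35 genes of mitosis and DNA replication, 31 were positive, 2 were higher at an unadjusted p under 0.05 (5.71%, against 1.21% of all genes), and 7 lay above all Erbb2 lines in every Hras line (against 3.43% of all genes). The list averaged 2.36, 2.52 and 2.30 in the Erbb2 lines and 2.85, 2.44 and 2.97 in the Hras lines, with Hras 2 below Erbb2 2. The median was 0.37, which is 0.50 relative to all genes and 0.67 after quantile normalization, where all 35 were positive. Cenpe, a motor protein of the kinetochore, was at 0.77, -0.20 and 0.67 in the Erbb2 lines and at 0.83, 1.86 and 1.58 in the Hras lines (difference 1.01 ± 0.34, SE; limma unadjusted p = 0.0155, adjusted p = 0.504). Top2a, a topoisomerase of dividing cells, was at 2.82, 2.68 and 2.99 against 3.94, 3.22 and 3.51. Each Hras line lay above each Erbb2 line in both genes. The 29 genes of hypoxia and glycolysis had 23 positive differences, with a median of 0.43, which is 0.56 relative to all genes and 0.63 after quantile normalization, and it was 0.23 without Hras 3 or without Erbb2 2. Of the 29, 2 were higher at an unadjusted p under 0.05 (6.9%, against 1.21% of all genes). In 2 every Hras line lay above all Erbb2 lines (against 3.43%). The list averaged 2.0, 1.61 and 2.0 in the Erbb2 lines and 2.23, 2.0 and 3.04 in the Hras lines. As rounded, Hras 2 was level with Erbb2 1 and 3. Slc2a3, the glucose transporter GLUT3, was at 0.54, -0.18 and 0.98 in the Erbb2 lines and at 1.30, 2.02 and 2.42 in the Hras lines (difference 1.47 ± 0.40, SE; limma unadjusted p = 0.00554, adjusted p = 0.504). Hk2, hexokinase 2, was at 0.19, -0.64 and -0.14 against 0.44, 0.85 and 0.76, also without overlap.

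The largest differences toward higher levels were carried by Hras 3 in many cases. Among the 12 genes with the largest positive differences, taken where the groups do not overlap and the brighter group reaches the array median, Hras 3 was more than 2 above both other Hras lines in 6. S100a6, a calcium-binding protein, was at -0.47, -1.10 and -0.42 in the Erbb2 lines and at -0.17, 0.17 and 5.05 in the Hras lines, and its difference of 2.34 was 0.66 without Hras 3. Glipr1, a secreted or membrane-bound p53 target, was at 4.21 in Hras 3 and between -2.18 and -0.66 in the other lines. Cd34 (3.03), Capg (3.52), Kcnn4 (3.53) and Synpr (3.05) were likewise high in Hras 3 alone among the Hras lines. Fndc3c1, a gene with fibronectin type III domains, was among the other 6, at -2.21, -1.85 and -2.75 in the Erbb2 lines and at 1.47, 0.20 and 1.90 in the Hras lines. Its difference of 3.46 ± 0.71 (SE; limma unadjusted p = 0.000987, adjusted p = 0.504) was the largest of these 12 and was 3.11 without Hras 3. Its Erbb2 levels lie below the dim limit, where the array may not separate a gene from background. Hells, a chromatin remodeller, was even across lines, at -0.18, -0.02 and 0.14 against 1.72, 1.29 and 1.54. Arhgap29, a GTPase-activating protein, had a difference of 2.29, Akr1b8, an aldo-keto reductase, of 2.1, Slc25a24, a mitochondrial carrier, of 1.70, and Nr2f2, a nuclear receptor, of 1.54.

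Of the 12 genes with the largest negative differences under the same limits, Hras 3 was more than 2 below both other Hras lines in 2. Cd93, a transmembrane glycoprotein, was at 5.37, 4.22 and 4.91 in the Erbb2 lines and at 3.04, 1.41 and 2.82 in the Hras lines. Serpina3n, a protease inhibitor of reactive astrocytes, was at 5.03, 4.07 and 5.50 against 3.01, 2.58 and 1.35, and Ldb2, a cofactor of LIM-domain factors, at 3.88, 3.23 and 3.65 against 2.36, 1.25 and 0.71. All of these were above 3 in each Erbb2 line and lower in each Hras line, with differences of -2.41 ± 0.58, -2.55 ± 0.77 and -2.15 ± 0.43 (SE). The NSC mean lay lower still, at 0.85 ± 0.96 for Cd93, 1.11 ± 1.56 for Serpina3n and 0.15 ± 0.49 for Ldb2 (SD, n = 3). For Cd93 and Serpina3n the NSC arrays overlapped the Hras lines. Mmp2, the gelatinase that degrades basement membrane, was at 2.1, 3.91 and 0.08 in the Erbb2 lines and at -0.41, -0.42 and -0.64 in the Hras lines. Its spread among the Erbb2 lines was wide and the Hras lines were even. Kcnv1, a modulatory potassium channel subunit, had the largest negative difference within these limits (-2.72), at 3.70, 2.68 and 1.56 against 0.03, 1.31 and -1.58. Pde7b (-2.57), C1s (-2.39), Cyb5r2 (-2.39), Opcml (-2.23), Kcnip3 (-2.12), Cxx1c (-2.1) and the Y-linked Ddx3y (-2.66) complete the 12. C1s was at 1.6, -1.96 and 0.6 in the Erbb2 lines and at -2.31, -2.0 and -2.63 in the Hras lines. For C1s and Ddx3y, Erbb2 2 and every Hras line lay below the dim limit of -1.48, so their separation rests on dim levels. Both were high in Erbb2 1 and 3 alone, the lines with high Y-linked genes, and the part of this in C1s was not tested.

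**Figure D5:**
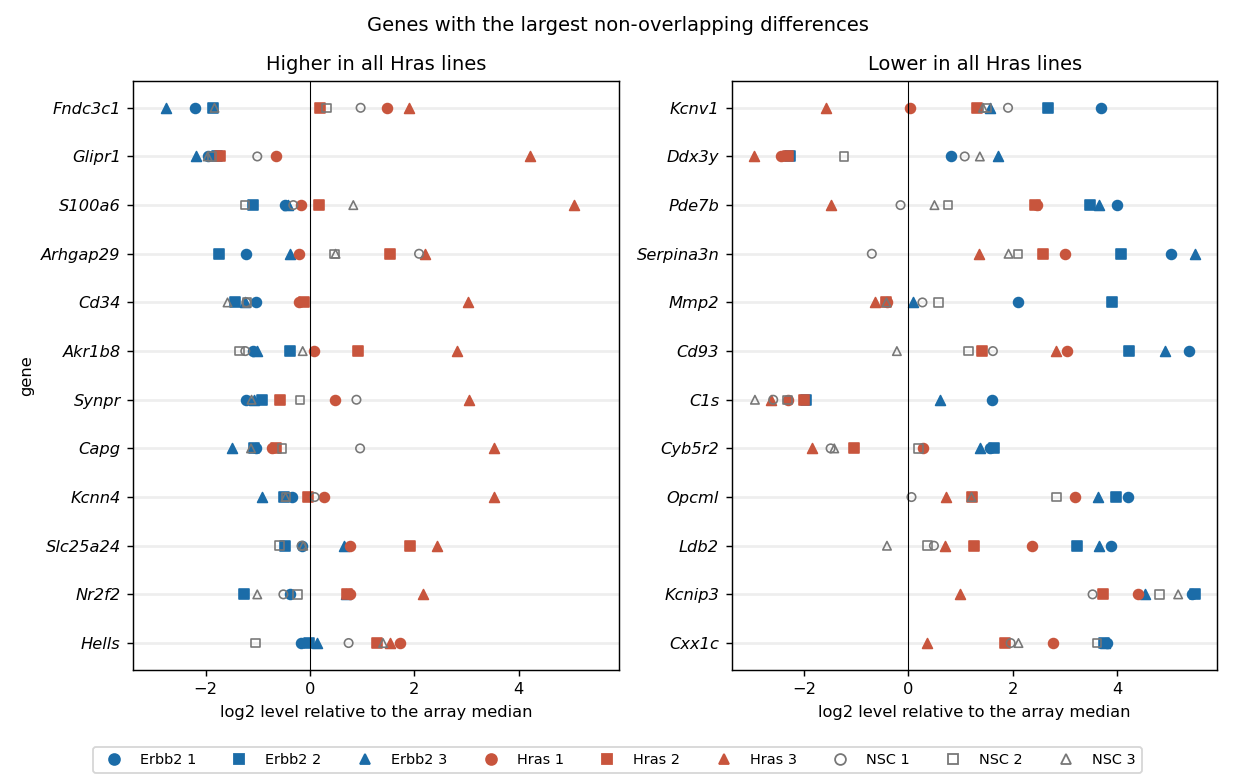
Log2 levels relative to the array median (horizontal axis) of the 12 genes with the largest positive and the 12 with the largest negative differences among genes whose groups do not overlap (vertical axis), 1 point per array. In the positive panel Hras 3 stands far to the right for S100a6 (5.05), Glipr1 (4.21) and Capg (3.52).

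The smallest p of all belonged to a gene that was even across the lines of each group. Dbndd2, a gene with a dysbindin domain, was at 1.01, 1.16 and 1.23 in the Erbb2 lines and at -0.17, -0.04 and -0.14 in the Hras lines (difference -1.25 ± 0.18, SE; limma unadjusted p = 6.79e-05, adjusted p = 0.504). Gstm7, a glutathione transferase, was at 3.59, 4.06 and 3.93 against 2.17, 2.0 and 2.07, a 3.43-fold lower mean. In both the gap between the groups was wider than the range within either. Fam155a had a difference of -1.14 ± 0.20 (SE), and Ldb2, described above, was also among the 5 lower genes with the smallest p within the limits given above. In the other direction Syde2 (0.99), Wdr44 (1.09), Cwf19l2 (0.87) and Mllt3 (0.83), a subunit of the super elongation complex, had the smallest p after Fndc3c1 within those limits, each with every Hras line above every Erbb2 line.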

How the data were processed

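There were 9 arrays (Affymetrix Mouse Gene 1.0 ST) in 3 groups of 3. The authors deposited a gene table of log2 values (20715 rows) and a table of linear intensity values for 35512 probe sets. Background correction, normalization and probe summary were not found: the sources used here do not give them. The 25 rows with a number for a symbol were left out, which left 20690 genes. For 20171 genes the deposited log2 value matched a single probe set's deposited intensity, taken to log2, on all arrays (tolerance 0.0001). All value columns were matched to a sample.

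Each array's median over genes was subtracted. All 9 arrays entered 1 fit of group means in limma 3.58.1 (R 4.3.3, lmFit and eBayes), and Hras minus Erbb2 was tested two-sided with Benjamini-Hochberg adjustment over all genes, called at an adjusted p under 0.05. The number of arrays limits the precision. The description of the array titled Hras 3 carries the number 4, and the title was followed.

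The members and gene lists (37 lists, 878 of 882 genes matched) were chosen with earlier results of these data known, and lists are described by counts and medians, without a test. Genes named are the 12 largest differences in each direction among genes whose groups do not overlap and whose brighter group is at or above the array median, the 5 smallest p in each direction under these same limits, up to 4 members of a described list in each direction, and a set of transgene, pathway, sex-linked and marker genes. Predicted genes, clones and receptor families were passed over, and some genes that the rule takes are not reported here. Srebf2, Asns, Slc3a2, Herpud1 and Hspa5 lie outside this rule and were chosen after their values were seen. The motifs capitalised in the promoters were also chosen after their counts were seen. Alternatives covered scaling, a filter on dim genes, the arrays in the fit, the spread, a replicate block, the intensity table and leaving out each line.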

Additional observations from a re-analysis of the deposited data

How the results depend on the processing

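Scaling had the most effect on counts. Genes higher in the Hras lines at an unadjusted p under 0.05 numbered 250, and 2476, 576 and 788 without centring, after quantile normalization and with centring on the 75th percentile, while genes lower numbered 1591, and 149, 595 and 401. Genes with groups apart numbered 5301, 1524 and 2281 higher and 424, 1725 and 1044 lower under these scalings, in that order. Genes higher were 417 with the 6 tumour arrays alone and 503 with array weights, and genes lower were 2496 with array weights. Without dim genes, which leaves fewer genes to test, 894 genes were lower and 1964 lay apart below. Leaving out each line gave 187 to 460 genes higher, 898 to 1691 lower, 1128 to 2075 apart above and 3908 to 5253 apart below, where fewer lines make separation easier. The count of called genes was 0 in each alternative except for 1 gene without Erbb2 2 (range 0 to 1). Same-numbered Hras and Erbb2 lines share the leading number of their descriptions, and its meaning is not stated. Deviations of same-numbered lines from their group means correlated at 0.339, -0.344 and 0.441, and those of differently numbered lines at -0.561 to 0.426. Whether same-numbered lines share a preparation was not tested. With the number as a replicate block 403 genes were higher and 1632 lower, with 0 called.

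The median of the mitosis and replication list was 0.79, 0.67 and 0.61 under the 3 scalings in that order, and that of the ATF4 list was -0.24 without centring. The sterol median was -0.18 without centring and -0.31 after quantile normalization. Sterol members lower at an unadjusted p under 0.05 numbered 2, 4 and 4 under the scalings and 5 to 12 with a line left out, and ATF4 list members 1, 3 and 4, and 4 to 14. Of all 20690 genes, 149, 595 and 401 were lower under those scalings and 898 to 1691 with a line left out. The 2 member counts were chosen for follow-up after seeing the data. The medians of the 6 lists in the plot of list means kept their sign in each alternative.

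Of 97 named genes, 14 changed sign in at least 1 alternative, all with a main difference within 2 standard errors. Under the 3 scalings in that order Dusp6 was at 0.35, 0.28 and 0.17, Hspa5 at 0.39, 0.33 and 0.21, and Vim at 0.24, 0.21 and 0.06. Aif1 was at 0.33 without centring and 0.15 with the 75th percentile, and Pdgfra at 0.15 without centring and 0.03 after quantile normalization. With array weights Dusp6 was at 0.00 and Hras1 at -0.01. With a line left out the ranges were -0.24 to 0.14 (Dusp6), -0.09 to 1.14 (Egfr), -2.60 to 0.62 (Erbb3), -0.32 to 2.60 (H2-Q4), -0.07 to 0.20 (Hras1), -0.04 to 0.34 (Hsp90b1), -0.30 to 0.27 (Hspa5), -0.17 to 1.19 (Neu4), -0.97 to 0.22 (Pdgfra), -0.17 to 0.52 (Pdia4), -0.06 to 0.35 (Stard4) and -0.51 to 1.70 (Tap1). Apart from the scalings, where the arrays' differing brightness enters by construction, the cause was not tested. No detection call was used, so levels near or below -1.48 may not stand above background.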

Other observations

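Genes of the extracellular matrix and its enzymes differed in both directions. Of 38 collagen and basement membrane genes 25 had a positive difference, with 3 higher (7.89%, against 1.21% of all genes) and 2 lower (5.26%, against 7.69%) at an unadjusted p under 0.05. Loxl2, a collagen cross-linking oxidase, was at -0.92, -1.36 and -1.04 in the Erbb2 lines and at -0.52, 0.54 and 0.80 in the Hras lines (limma unadjusted p = 0.00346, adjusted p = 0.504). Plod2, a collagen lysyl hydroxylase, was at 1.63, 2.02 and 2.33 against 2.64, 2.93 and 4.01. Pcolce, which aids procollagen cleavage, was the reverse, at 5.28, 4.43 and 5.09 against 3.83, 4.16 and 3.66. In all of these the groups did not overlap. Among protease inhibitors Timp4 was at 4.32, 5.09 and 5.77 in the Erbb2 lines and 4.20, 1.87 and 3.18 in the Hras lines, while Timp1 was at 3.00, -0.37 and -1.01 against 1.20, 3.95 and 5.19, with overlap.

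Further genes whose groups did not overlap belong to cell cycle control, activin signalling and adhesion. Cdkn1a, the p53 target p21, was at 4.70, 4.16 and 4.42 in the Erbb2 lines and at 2.22, 2.67 and 3.97 in the Hras lines (difference -1.47 ± 0.47, SE; limma unadjusted p = 0.0134, adjusted p = 0.504). The other p53 targets had no shared direction, with 13 of 31 members of that list positive. Inhba, the activin A subunit, was at -1.24, -1.36 and -1.46 against -0.52, -0.79 and -0.58, a difference of 0.73 ± 0.16 (SE) at levels below the array median. Itga8, an integrin subunit, was at 4.52, 3.90 and 4.70 in the Erbb2 lines and 3.26, 3.83 and 2.21 in the Hras lines, where NSC had -0.76 ± 0.55 (SD, n = 3).

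One gene passed the adjusted threshold when Erbb2 2 was left out. Cacng3, a subunit of calcium channels and glutamate receptors chosen after its values were seen, was at 2.64, -1.51 and 2.29 in the Erbb2 lines and at -1.66, -0.93 and -1.14 in the Hras lines. Without Erbb2 2 its difference was -3.71 (limma adjusted p = 0.0393), and with all lines it was -2.39 with overlapping groups. Its levels were thus high in the lines with high Y-linked genes, Erbb2 1 and 3, and the part of this was not tested.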
